A study of Mus musculus with 6 samples.

Results

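The Krüppel-like factors (Klf) are transcription factors that bind GC-rich and CACCC-like promoter elements through 3 C2H2 zinc fingers at the C-terminal end of the protein. Because these fingers are much alike across the family, several Klf proteins can bind the same promoters, and what differs between them is mainly the N-terminal part, which recruits coactivators or corepressors. Klf9, Klf10, Klf11, Klf13 and Klf16 form the group that binds the Sin3 corepressor, Klf3 and Klf12 recruit the corepressor CtBP, and Klf6 and Klf7 are mostly known as activators. Klf15 is known from metabolic and glucocorticoid-responsive transcription. In the adult hippocampus, Klf9 is induced by glucocorticoids and thyroid hormone and is studied as a brake on the activation of neural stem cells. Here the ribosome-bound mRNA of Klf9 and 9 of its relatives (Klf13, Klf16, Klf10, Klf11, Klf3, Klf12, Klf6, Klf7 and Klf15) was followed with and without conditional deletion of Klf9, to ask which relatives were present at a level near that of Klf9 and whether any was higher where Klf9 was lower. The members were chosen by name, and all 10 were found among the 37620 genes counted.

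Both groups were Gli1CreERT2:Rpl22HA f/+ mice, carrying either Klf9 +/+ or Klf9 f/f. In these mice tamoxifen activates Cre in cells that express Gli1, a target of Hedgehog signalling that marks radial-glial neural stem cells (RGLs) of the dentate gyrus. Cre switches on a haemagglutinin-tagged ribosomal protein, RPL22-HA, in both genotypes and, in Klf9 f/f mice only, also removes exon 1 of Klf9 by the study's design, and the tagged ribosomes are isolated with their mRNA by immunoprecipitation against HA (RiboTag). The mice were 2–3 months old and received 3 injections of 250 mg/kg tamoxifen 12 hr apart, and tissue was taken 4 days after the last injection. Each genotype had 3 samples, and the 6 dentate gyri of 3 mice went into each. The titles call the Klf9 f/f samples knock down, and they place replicates 1 and 2 of each genotype in library series YTa22 and replicate 3 in series YTa32. Replicate numbers were given here in deposition order and pair no samples.

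Reads counted on genes ranged from 21594714 to 66343759 per sample, and both YTa32 samples were below all 4 of YTa22. The 4 YTa22 totals are above the read number per sample that the methods of the study state, and the counts were used as deposited. The 10 members were measured from 297 counts (Klf16 in Klf9 +/+ replicate 1) to 11725 counts (Klf9 in Klf9 +/+ replicate 2). None of the markers checked for RGLs, astrocytes, granule neurons or the other cell types below was at 0 in any sample. The summed level of 11 RGL markers was 5018 to 6336 CPM (reads scaled to a fixed library size) in Klf9 +/+ and 5949 to 7678 CPM in Klf9 f/f, with 1 of 11 called higher. Gfap, by which the study also identified astrocytes, was the largest part of the RGL sum in every sample. Astrocyte markers summed to 9030 to 12570 CPM and 12670 to 14250 CPM, and 4 of 10 were called higher in Klf9 f/f by the rule used for the members. Choroid plexus markers summed to 123, 704 and 2664 CPM in Klf9 +/+ against 17.7, 14.6 and 397 CPM in Klf9 f/f, and 10 of 10 were called lower. Endothelial markers summed to 120 to 330 CPM and 48.8 to 195 CPM, with 2 of 8 called lower and all 8 below 0 in log2 fold change. Mural markers summed to 557 to 984 CPM and 408 to 723 CPM, with 3 of 6 called lower, and meningeal fibroblast markers to 816 to 1786 CPM and 531 to 1104 CPM, with 1 of 8 called lower. Oligodendrocyte markers summed to 429 to 662 CPM and 408 to 560 CPM, with 1 of 6 called lower, and microglial markers (62.7 to 90.6 CPM over the 6 samples) had 0 of 6 called. Granule neuron markers (892 to 1174 CPM over the 6 samples) had 0 of 8 called in either direction. This list also holds the general neuronal genes Rbfox3, Snap25, Syt1 and Grin1. In such bulk samples fewer cells of a type and less RNA per cell cannot be told apart, and the part of these marker differences in the members' differences was not tested.

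The zinc fingers of Klf9 and its relatives were compared first, since these carry the binding to DNA. Over the 81 residues from the first cysteine to the last histidine of the 3 fingers, Klf13 was the closest to Klf9, with 15 differing residues (81.5% identity). It was followed by Klf16 with 19 (76.5%), Klf11 with 22 (72.8%) and Klf10 with 23 (71.6%), so the 4 relatives of the Sin3-binding group were the 4 nearest. Klf3 and Klf12 each differed at 28 residues (65.4%), Klf15 at 29 (64.2%), Klf7 at 31 (61.7%) and Klf6 at 32 (60.5%). Among each other Klf6 and Klf7 shared 95.1% of residues, Klf3 and Klf12 91.4%, and Klf10 and Klf11 86.4%. The differences were not evenly placed. In the third finger Klf13 differed from Klf9 at 1 residue, Klf16 at 2, and Klf10 and Klf11 at 3 each, whereas Klf15 differed at 7, Klf3 and Klf12 at 9 each, and Klf6 and Klf7 at 10 each. The second finger differed at 6 residues in Klf13, Klf16 and Klf12, 7 in Klf11, Klf3 and Klf15, 8 in Klf7, and 9 in Klf10 and Klf6. The first finger differed at 5 residues in Klf13, 6 in Klf3, 7 in Klf10, Klf12, Klf6 and Klf7, and 8 in Klf16, Klf11 and Klf15. In the first and second fingers the Sin3-binding group was thus not set apart from the other relatives. A PXDLS motif, the short peptide bound by CtBP, was present in Klf3 and Klf12 and absent from the other members.

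The coding bases of the finger block are shown for Klf9, for Klf13 and Klf16 as its nearest relatives, for Klf15 as the relative called higher in Klf9 f/f, and for Klf6 as the relative called lower. Each runs 5′ to 3′ on the coding strand from the first cysteine to the last histidine codon, spliced, from GENCODE M1 transcripts on mm9. Capitals mark bases that differ from Klf9, which is therefore all lower case.
Klf9, chr19:23216677-23239342, plus strand: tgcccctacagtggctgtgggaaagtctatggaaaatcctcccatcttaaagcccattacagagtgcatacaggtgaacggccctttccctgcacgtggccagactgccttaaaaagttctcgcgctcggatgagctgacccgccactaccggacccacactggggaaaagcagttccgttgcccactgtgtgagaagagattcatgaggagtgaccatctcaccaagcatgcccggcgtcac
Klf13, chr7:71036514-71082925, minus strand: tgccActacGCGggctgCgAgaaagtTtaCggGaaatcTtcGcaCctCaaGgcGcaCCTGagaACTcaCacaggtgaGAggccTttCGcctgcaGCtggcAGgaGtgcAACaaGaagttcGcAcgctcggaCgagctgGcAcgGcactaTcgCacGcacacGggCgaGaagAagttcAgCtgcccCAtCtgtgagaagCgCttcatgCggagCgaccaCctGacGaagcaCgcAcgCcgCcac
Klf16, chr10:80031798-80039564, minus strand: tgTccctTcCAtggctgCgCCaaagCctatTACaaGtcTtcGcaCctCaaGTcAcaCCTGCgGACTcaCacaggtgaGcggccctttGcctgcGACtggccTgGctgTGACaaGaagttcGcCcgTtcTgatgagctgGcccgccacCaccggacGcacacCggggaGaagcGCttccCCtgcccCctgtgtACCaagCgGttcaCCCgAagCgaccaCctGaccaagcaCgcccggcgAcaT
Klf15, chr6:90417402-90424240, plus strand: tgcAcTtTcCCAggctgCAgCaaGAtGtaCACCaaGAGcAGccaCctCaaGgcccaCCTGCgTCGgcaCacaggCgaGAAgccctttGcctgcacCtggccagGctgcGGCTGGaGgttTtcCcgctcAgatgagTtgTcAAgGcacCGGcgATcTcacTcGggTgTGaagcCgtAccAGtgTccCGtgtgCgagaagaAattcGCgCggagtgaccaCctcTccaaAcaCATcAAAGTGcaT
Klf6, chr13:5864518-5866523, plus strand: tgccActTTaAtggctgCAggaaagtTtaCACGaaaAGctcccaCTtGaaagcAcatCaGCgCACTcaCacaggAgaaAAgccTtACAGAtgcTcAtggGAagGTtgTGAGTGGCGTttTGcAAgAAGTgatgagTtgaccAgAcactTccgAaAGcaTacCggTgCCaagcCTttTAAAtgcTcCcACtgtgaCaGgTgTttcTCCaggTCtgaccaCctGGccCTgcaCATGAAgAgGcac
Klf13 differed from Klf9 at 66 of 243 bases, Klf16 at 70, Klf15 at 91 and Klf6 at 102. An exon boundary fell after base 73 of the block in 9 members, Klf9 among them, and after base 116 in Klf15. The longest exact run that any relative's transcript shared with the Klf9 transcript was 12 to 16 bases, shorter than the 50 bp reads.

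Klf9 itself, the targeted gene, was lower in Klf9 f/f. Replicates 1, 2 and 3 measured 201, 204 and 139 CPM for Klf9 +/+ and 114, 121 and 120 CPM for Klf9 f/f (181 ± 36.6 against 118.5 ± 3.76, SD, n = 3 each). All Klf9 f/f samples were below all Klf9 +/+ samples, with the Klf9 +/+ sample of series YTa32 the nearest to them. The log2 fold change, Klf9 f/f over Klf9 +/+ with the series as a term in edgeR's quasi-likelihood fit, was −0.59 ± 0.15 (SE; 95% interval −0.93 to −0.26; unadjusted p = 0.00319, adjusted p = 0.844; two-sided exact permutation p over the 6 samples = 0.1, the smallest that 3 against 3 allows), a fall of 33.7%. The permutation test of genotype, for Klf9 and for the members below, took no account of the series, unlike the fit. Within YTa22 the difference of Klf9 was −0.78, and between the single samples of each genotype in YTa32 it was −0.21. The difference between these series was 0.57 ± 0.34 (SE; adjusted p = 1.0 in the edgeR interaction fit). Klf9 has an exon of 1034 bp (chr19:23215716-23216749) and one of 2229 bp (chr19:23239173-23241401), so 31.7% of the counted length, 505 of 735 coding bases (68.7%) and the first 73 finger bases lie in exon 1. The deposited count is 1 value per gene, and transcripts with and without exon 1 were therefore not told apart.

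**Figure D1:**
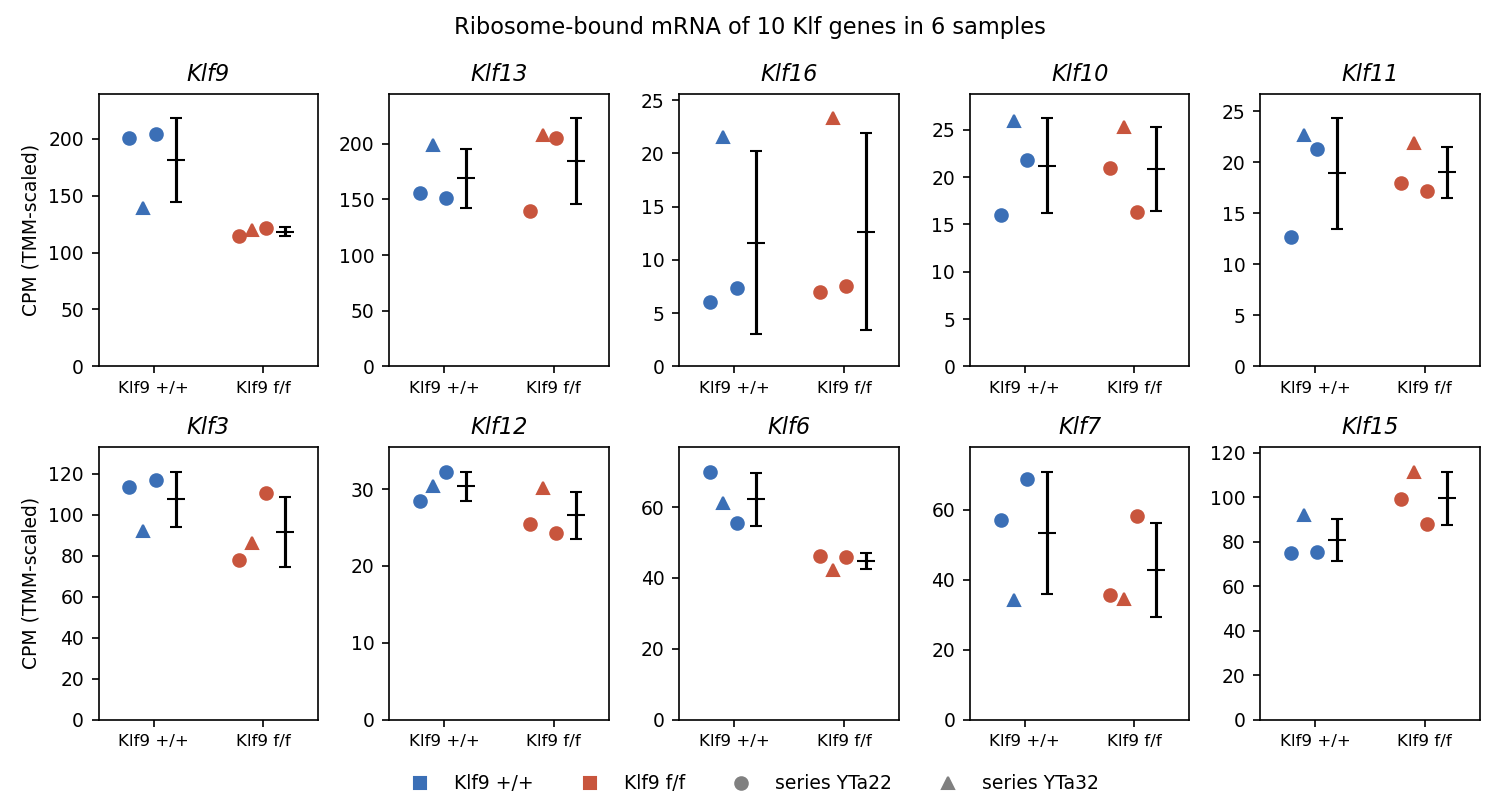
Level of each Klf gene in CPM (vertical axes, each from 0) in the 3 Klf9 +/+ samples (blue) and the 3 Klf9 f/f samples (red); circles are series YTa22, triangles series YTa32, and black bars the mean ± SD. Klf9 and Klf6 have all Klf9 f/f samples below all Klf9 +/+ samples, Klf15 is higher in Klf9 f/f within each series, and the Klf16 samples part by series. The share of all genes tested that separate over all 6 samples was not counted.

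The 4 relatives that share both the Sin3-binding class and the nearest fingers did not pass the test in either direction. Klf13, a repressor close to Klf9 in sequence, was the most abundant of them. It measured 156, 151 and 199 CPM in Klf9 +/+ and 140, 205 and 208 CPM in Klf9 f/f, and the groups overlapped, since Klf9 f/f replicate 1 was the lowest of all 6. The log2 fold change of Klf13 was 0.13 ± 0.16 (SE; 95% interval −0.23 to 0.49; unadjusted p = 0.433 and adjusted p = 1.0 by edgeR; exact permutation p = 0.8), an interval that reaches up to a 1.41-fold higher level. Klf16 measured 6.00, 7.32 and 21.6 CPM in Klf9 +/+ and 7.02, 7.54 and 23.3 CPM in Klf9 f/f. Both of its YTa32 samples stood far above the 4 of YTa22, a gap of 1.69 on the log2 scale among the Klf9 +/+ samples. Within each series the genotypes were close, and the fit gave 0.12 ± 0.17 (SE; 95% interval −0.26 to 0.50; upper bound 1.42-fold). Klf10 and Klf11, which are induced by TGF-β signalling, were alike in level and in pattern. Klf10 measured 15.95, 21.8 and 25.9 CPM in Klf9 +/+ and 21.0, 16.3 and 25.3 CPM in Klf9 f/f, with a log2 fold change of −0.02 ± 0.17 (SE; upper bound 1.29-fold). Klf11 measured 12.7, 21.3 and 22.7 CPM against 17.9, 17.2 and 21.9 CPM, with a log2 fold change of 0.01 ± 0.20 (SE; upper bound 1.38-fold). In both genes the Klf9 f/f values lay within the range of the Klf9 +/+ values. The median log2 fold change of these 4 relatives was 0.07, beside 0.00 over the 15056 genes tested.

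Klf3 and Klf12, the CtBP-binding repressors, also did not pass the test. Klf3 measured 113, 117 and 92.1 CPM in Klf9 +/+ and 77.9, 111 and 86.2 CPM in Klf9 f/f, a log2 fold change of −0.23 ± 0.16 (SE; 95% interval −0.58 to 0.12; adjusted p = 1.0 by edgeR; exact permutation p = 0.2). Klf12 measured 28.4, 32.3 and 30.4 CPM against 25.4, 24.3 and 30.1 CPM, a log2 fold change of −0.20 ± 0.14 (SE; 95% interval −0.51 to 0.12). In both, the Klf9 f/f samples lay below the Klf9 +/+ samples of their own series, although the groups overlapped across series. Without Klf9 f/f replicate 1 the log2 fold change of Klf3 was −0.075, and without Klf9 +/+ replicate 2 that of Klf12 was −0.12.

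Of the activators, Klf6, an immediate early gene of injury and growth factor responses, was lower in Klf9 f/f. It measured 70.0, 55.4 and 61.1 CPM in Klf9 +/+ and 46.1, 46.0 and 42.2 CPM in Klf9 f/f, without overlap. How many of all genes tested separated in this way over the samples of both series was not counted. The log2 fold change was −0.47 ± 0.14 (SE; 95% interval −0.78 to −0.17; unadjusted p = 0.00686 and adjusted p = 0.959 by edgeR; exact permutation p = 0.1), a fall of 28.0%, with differences of −0.43 in YTa22 and −0.53 in YTa32. Without Klf9 f/f replicate 3 the log2 fold change was −0.44 and the call was narrowly lost (unadjusted p = 0.0535 by edgeR). The summed markers of choroid plexus, endothelium, mural cells, meningeal fibroblasts and oligodendrocytes differed by −4.20, −1.03, −0.30, −0.25 and −0.11 (log2, Klf9 f/f over Klf9 +/+) in YTa22 and by −2.75, −1.46, −0.73, −0.83 and −0.70 in YTa32, and their part was not tested. Klf7, known for its role in neurite outgrowth, measured 57.1, 68.8 and 34.3 CPM in Klf9 +/+ and 35.7, 58.3 and 34.4 CPM in Klf9 f/f. The log2 fold change of Klf7 was −0.28 ± 0.20 (SE; 95% interval −0.73 to 0.17), with −0.46 in YTa22 and 0.00 in YTa32, and the 2 samples of YTa32 were all but equal. Leaving out Klf9 f/f replicate 1 brought Klf7 to −0.063 and leaving out Klf9 f/f replicate 2 brought it to −0.47. Of the exonic length of Klf7, 39.4% overlaps the annotated genes Gm13748 and Gm17427, where HTSeq assigns a read to no gene, so its level is a lower estimate. The other 9 members share no exonic base with another annotated gene.

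Klf15 was the only member called higher in Klf9 f/f. It measured 74.8, 75.6 and 91.8 CPM in Klf9 +/+ and 99.1, 87.7 and 111.5 CPM in Klf9 f/f (80.7 ± 9.59 against 99.4 ± 11.9, SD, n = 3 each). The Klf9 f/f samples were above the Klf9 +/+ samples within each series, while Klf9 +/+ replicate 3 was above Klf9 f/f replicate 2 of the other series. The log2 fold change was 0.30 ± 0.12 (SE; 95% interval 0.03 to 0.58; unadjusted p = 0.0356 and adjusted p = 1.0 by edgeR; exact permutation p = 0.2), an increase of 23.3%, with differences of 0.31 in YTa22 and 0.28 in YTa32. The call was lost without any 1 of the other 5 samples and kept without Klf9 f/f replicate 2 (log2 fold changes of 0.25 to 0.35 over these fits). Astrocyte markers were also higher in Klf9 f/f, by 0.26 in YTa22 and 0.60 in YTa32 (log2 of summed CPM), and the sum of RGL markers by 0.19 and 0.32. Gfap, the largest part of the RGL sum, measured 2211, 1866 and 3108 CPM in Klf9 +/+ and 3306, 2268 and 4026 CPM in Klf9 f/f. Not every RGL marker rose within YTa22, where Nes measured 69.65 and 43.29 CPM in Klf9 +/+ and 43.26 and 44.26 CPM in Klf9 f/f. In the fit over both series, 9 of 11 RGL markers were above 0 in log2 fold change and 2 below. The part of astrocyte or RGL markers in the Klf15 difference was not tested.

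Over the 10 members, all of which passed the expression filter, 1 was called higher (Klf15) and 2 were called lower (Klf9 and Klf6) by 1.2-fold or more with an unadjusted p under 0.05, and 7 were not called. Of the 15056 genes tested, 1.82% were called higher and 2.50% lower by the same rule. None of the members passed at an adjusted p of 0.05, nor did any gene (0.00%) by the quasi-likelihood test of edgeR, with 650 genes at an unadjusted p under 0.05. DESeq2 gave 39 genes and edgeR's likelihood-ratio test 58 genes at that adjusted threshold, and none of the members was among them. Klf9 f/f lay above Klf9 +/+ within both series for 1 member (Klf15) and below it for 4 (Klf9, Klf3, Klf12 and Klf6), where 7.78% and 5.53% of all genes tested did so. The differences in the separate series had opposite signs for Klf11 (0.10 in YTa22 and −0.05 in YTa32) and Klf7 (−0.46 and 0.0015). The other members, the deleted Klf9 among them, had the same sign in both, and the share of all genes that did so was not counted. The interaction of series and genotype had an unadjusted p under 0.05 for 0 members by edgeR's quasi-likelihood test, beside 1.53% of all genes.

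**Figure D2:**
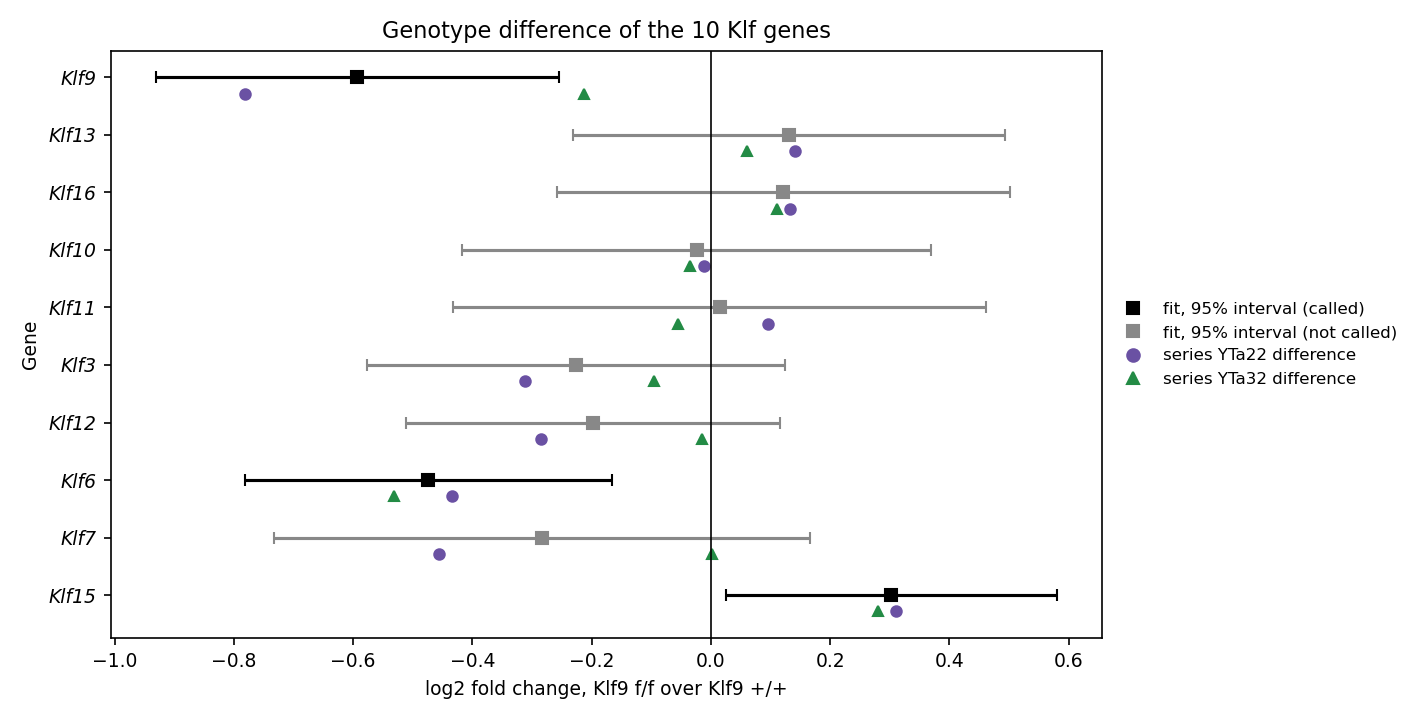
Log2 fold change of each Klf gene, Klf9 f/f over Klf9 +/+ (horizontal axis), with squares and bars for the fit and its 95% interval (black where called, grey where not), circles for the difference within series YTa22 and triangles for that within YTa32. Only the intervals of Klf9, Klf6 and Klf15 leave out 0, and the Klf9 difference is −0.78 in YTa22 and −0.21 in YTa32.

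Levels of different genes were compared per length, as RPKM (CPM per kb of merged exons). By the geometric mean over the 6 samples Klf9 was the most abundant member at 44.6 RPKM (range 35.0 to 62.5), followed by Klf3 at 37.7 (29.8 to 44.8), Klf15 at 35.3 (29.6 to 44.1) and Klf13 at 26.4 RPKM (21.2 to 31.5). Klf6 followed at 12.5 RPKM (10.01 to 16.6). Klf7 (5.67 RPKM), Klf10 (5.41), Klf12 (4.95), Klf11 (4.4) and Klf16 (3.88) made up the low end, and ranged from 2.27 to 8.81 RPKM over all samples. The top of this order differed between the genotypes. In Klf9 +/+ Klf9 came first (mean 55.6 ± 11.2 RPKM, SD, n = 3), ahead of Klf3 (41.2 ± 5.17) and Klf15 (31.9 ± 3.79). In Klf9 f/f Klf15 came first (39.4 ± 4.69 RPKM, SD, n = 3), followed by Klf9 (36.3 ± 1.15) and Klf3 (35.0 ± 6.501), and these 3 lay within their spread of each other. Exon 2 holds 68.3% of the counted length of Klf9. Its level in Klf9 f/f may therefore include transcripts without exon 1, which the count does not tell apart. Neighbours in the order over all 6 samples were compared by exact sign-flip permutation tests over the within-sample differences (two-sided, 9 pairs, Benjamini-Hochberg adjusted; 0.0312 is the smallest p that 6 samples allow). Klf15 was 1.34-fold above Klf13, Klf13 2.12-fold above Klf6, and Klf6 2.20-fold above Klf7, each in 6 of 6 samples (exact permutation p = 0.0312, adjusted p = 0.0936). Klf9 was 1.18-fold above Klf3, in 5 of 6 samples (exact permutation p = 0.0938, adjusted p = 0.169). Klf3 and Klf15 changed places between samples, with Klf3 above in 3 of 6, as did Klf7 and Klf10. None of the 9 pairs passed after adjustment, since even the pairs at the smallest possible p of the sign-flip test came to an adjusted p of 0.0936. This does not show that neighbours were equal in level. The pairs were also taken from the order in these same samples, so the tests give no independent check of it. In all samples the upper 4 lay above Klf6 and Klf6 above the lower 5.

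**Figure D3:**
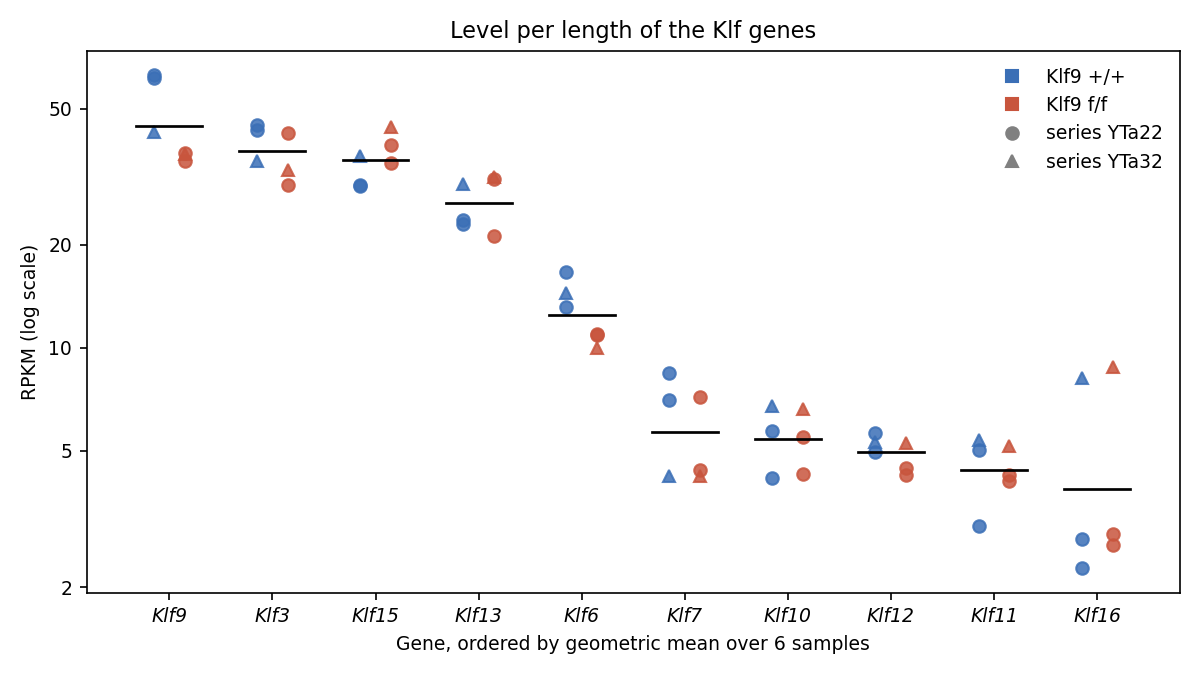
RPKM of each Klf gene (log axis) in every sample, ordered by the geometric mean over 6 samples (black lines); blue is Klf9 +/+, red Klf9 f/f, circles series YTa22 and triangles series YTa32. Klf9, Klf3, Klf15 and Klf13 lie above 20 RPKM in all samples, and Klf7, Klf10, Klf12, Klf11 and Klf16 below 10.

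Set beside Klf9 in the same sample, no relative reached it in Klf9 +/+. These are bulk levels, and whether Klf9 and a relative were present in the same cells was not tested. Granule neuron markers, general neuronal genes among them, summed to 892 to 1174 CPM, and the study states that mature granule cells also express Klf9. The part of granule cells in the Klf9 level was not tested. The level per length of Klf15 relative to Klf9 was 0.481, 0.479 and 0.852 in Klf9 +/+, and 1.12, 0.934 and 1.2 in Klf9 f/f. Klf15 was thus above Klf9 in 2 of 3 Klf9 f/f samples. Klf3 stood at 0.705, 0.717 and 0.827 of Klf9 in Klf9 +/+ and at 0.851, 1.14 and 0.897 in Klf9 f/f, above Klf9 in 1 of 3. For Klf15 and Klf3 the ratio was higher in every Klf9 f/f sample than in every Klf9 +/+ sample, and the fall of Klf9 itself enters all these ratios. The Klf9 level in the Klf9 f/f ratios may also include transcripts without exon 1. Klf13, the nearest relative by its fingers, stood at 0.385, 0.367 and 0.709 of Klf9 in Klf9 +/+ and at 0.605, 0.837 and 0.856 in Klf9 f/f. Klf6 remained between 0.210 and 0.340 of Klf9 in all samples, and the other relatives did not exceed 0.239.

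**Figure D4:**
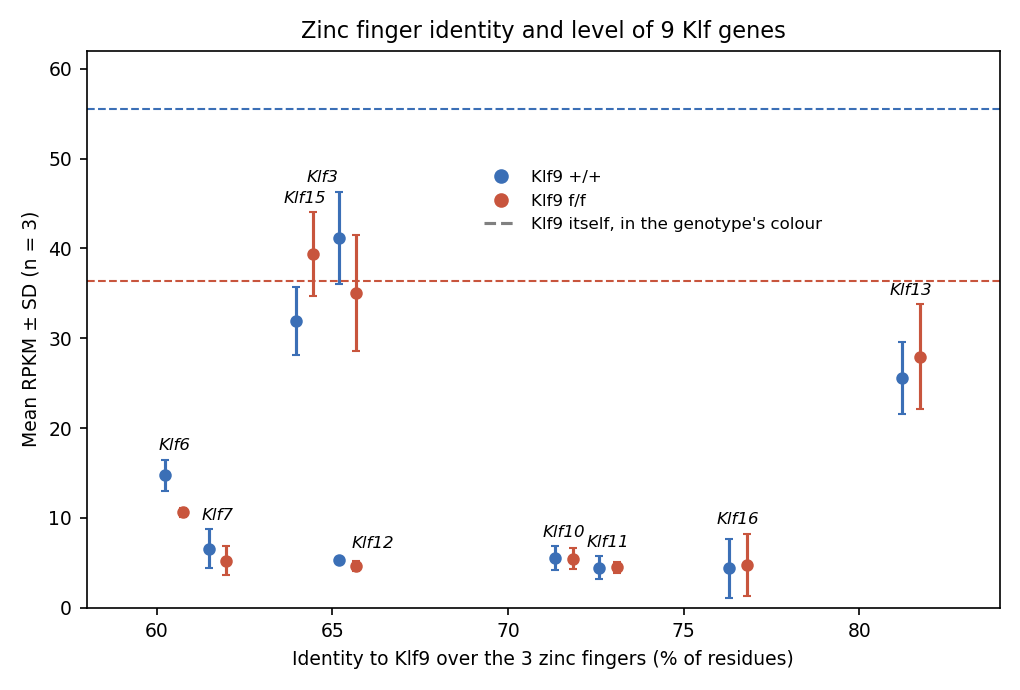
Mean RPKM ± SD (vertical axis, n = 3) of the 9 relatives in Klf9 +/+ (blue) and Klf9 f/f (red) against the percentage of zinc finger residues identical to Klf9; the pair for each gene is set slightly apart sideways, and dashed lines give the mean of Klf9 itself, 55.6 RPKM in Klf9 +/+ and 36.3 RPKM in Klf9 f/f. Klf13 combines the highest identity (81.5%) with a level above 20 RPKM, whereas Klf15 and Klf3 reach higher levels at 64.2% and 65.4% identity.

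The Sin3-binding group was also summed, on the RPKM scale and with no test, because its members share a corepressor. Klf13, Klf16, Klf10 and Klf11 together gave 33.1, 36.4 and 50.5 RPKM in Klf9 +/+ and 33.6, 42.3 and 52.1 RPKM in Klf9 f/f, means of 40.0 ± 9.22 and 42.7 ± 9.26 (SD, n = 3). In YTa22 this sum was 3.17 RPKM higher in Klf9 f/f while Klf9 was 25.9 RPKM lower, and in YTa32 it was 1.59 RPKM higher while Klf9 was 5.83 RPKM lower. With Klf9 included the group summed to 94.7, 98.9 and 93.1 RPKM in Klf9 +/+, a narrow range, and to 68.6, 79.5 and 88.9 RPKM in Klf9 f/f. All Klf9 f/f sums were below all Klf9 +/+ sums, but these sums include Klf9, the deleted gene. The mean difference, Klf9 f/f minus Klf9 +/+, was −19.2 RPKM for Klf9 alone and 2.64 RPKM for Klf13, Klf16, Klf10 and Klf11 together. Klf9 held 65.0%, 63.2% and 45.8% of the group's sum in Klf9 +/+ and 51.1%, 46.8% and 41.4% in Klf9 f/f. Over the 9 relatives without Klf9 the sum was 134.7 to 146.1 RPKM in Klf9 +/+ and 122.4 to 148.7 RPKM in Klf9 f/f, and the groups overlapped.

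The remaining Klf genes, the Sp genes (related factors with the same kind of fingers) and the corepressor genes were described as lists. Of 7 further Klf genes 5 passed the filter, 0 were called higher and 2 lower, with a median log2 fold change of −0.42. Of all genes tested 1.82% were called higher and 2.50% lower. Klf2, an endothelial factor induced by blood flow, measured 29.0, 15.3 and 26.9 CPM in Klf9 +/+ and 19.9, 10.1 and 13.1 CPM in Klf9 f/f (log2 fold change −0.71 ± 0.30, SE; adjusted p = 1.0 by edgeR). Klf4, known from pluripotency and from vascular and epithelial cells, measured 5.74, 2.99 and 8.99 CPM against 2.29, 2.74 and 2.98 CPM (−1.05 ± 0.32, SE; adjusted p = 0.979 by edgeR). In YTa22 and YTa32 the endothelial markers differed by −1.03 and −1.46 (log2 of summed CPM) and the choroid plexus epithelial markers by −4.20 and −2.75. The part of either in the Klf2 and Klf4 differences was not tested. Klf14 and Klf17 had at most 5 counts in any sample and did not enter the test. Of 9 Sp genes 7 passed the filter and 0 were called, with log2 fold changes from −0.19 to 0.52 and a median of 0.01; Sp3 was the most abundant, at 63.8 CPM or more in every sample. The 12 genes of the Sin3 and CtBP corepressors, such as Sin3a, Hdac1 and Ctbp1, passed the filter without a call, with log2 fold changes from −0.16 to 0.12 and a median of 0.04. Among the 9 relatives of Klf9 the median was −0.02, with 1 called higher and 1 lower, beside the same 1.82% and 2.50% of all genes tested.

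**Figure D5:**
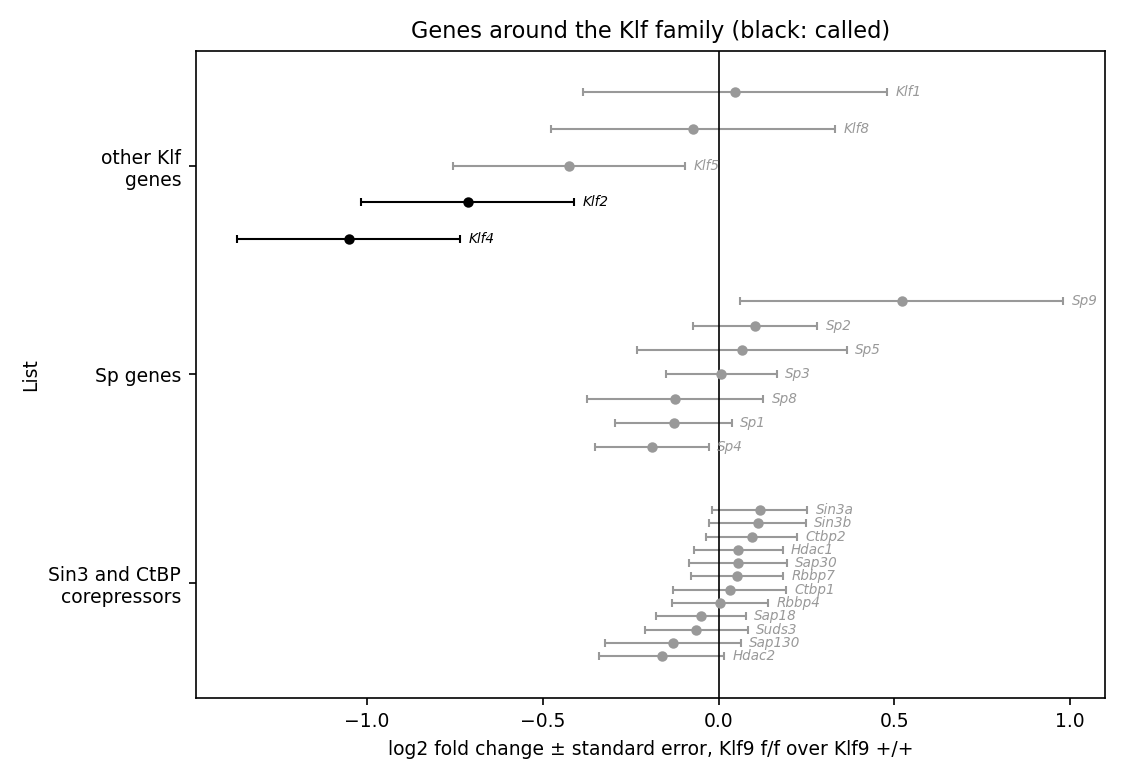
Log2 fold change ± SE, Klf9 f/f over Klf9 +/+ (horizontal axis), of the other Klf genes, the Sp genes and the Sin3 and CtBP corepressor genes that passed the filter; black points were called, grey ones were not. Klf2 and Klf4 are the called genes, and the 12 corepressor genes lie between −0.16 and 0.12.

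Genes whose pattern was most like that of Klf9 were sought by the root mean square (RMS) difference of log2 CPM over the 6 samples, each gene centred within its library series, among 10382 genes with a mean above 10 CPM. The nearest 5 were Dynlt1a (RMS 0.0365), 2810474O19Rik (0.0791), Fahd1 (0.0804), Tet1 (0.0998) and Gadd45a (0.119), where the median gene was at 0.357. Dynlt1a, which has near-identical copies so that its count is uncertain, measured 15.5, 15.6 and 8.20 CPM in Klf9 +/+ and 8.67, 8.93 and 7.61 CPM in Klf9 f/f. Tet1, which oxidises 5-methylcytosine in DNA, measured 20.8, 23.2 and 20.8 CPM against 11.7, 15.1 and 19.3 CPM. Of the relatives Klf6 was nearest (0.200), followed by Klf12 (0.220), Klf3 (0.229) and Klf7 (0.242), and Klf13 (0.408), Klf11 (0.418) and Klf15 (0.474) were the farthest. A flat profile would lie at 0.326 from Klf9, so these distances in part restate the genotype differences given above.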

How the data were processed

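The members and the gene lists were chosen with earlier results of these data known. By the study's methods and the labels, the authors aligned 50 bp reads to mm9 with STAR, used the unstranded mode of HTSeq 0.6.0 and deposited raw counts per gene, so reads from genes that overlap on either strand go to no gene. The 5 HTSeq summary lines (16.4% to 26.6% of all counts) were left out. Names came from GENCODE M1 on mm9 for 37205 of 37620 genes. Genes above 1 CPM, before scaling, in at least 1 sample were kept (15056), after the study's methods. Counts were TMM-normalized and tested with the quasi-likelihood F test of edgeR 4.0.16 (R 4.3.3), with library series and genotype as terms and 3 residual degrees of freedom. The standard error was the size of the log2 fold change divided by the square root of F. A call needed 1.2-fold and an unadjusted p under 0.05, as in the study. Adjusted p-values used the Benjamini-Hochberg method over all genes tested. RPKM was TMM-scaled CPM per kb of merged exons. The rule for named genes took the 10 members, the called genes of the lists, and the 5 genes most like Klf9. Genes named from a list without a call are examples chosen after their values were seen. The fits were tested on simulated counts. Alternatives included DESeq2 1.42.0, and their effect is given in the closing section. Labels do not say whether samples share a litter or day, so p-values measure the spread between these pools. Python 3.11.15 with matplotlib 3.10.9 made the figures.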

Additional observations from a re-analysis of the deposited data

How the results depend on the processing

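Under 14 alternatives of the genotype fit (no series term, likelihood-ratio test, DESeq2, other normalizations and filters, each sample left out, series YTa22 alone), Klf9 kept its direction and call in all 14, with log2 fold changes of −0.79 to −0.51 (adjusted p 0.0199 to 1.0), and the adjusted count rose from 0 to 1 member, Klf9, with no filter beyond 1 count. Klf6 ranged from −0.58 to −0.38 and lost its call in 1 alternative. Klf15 ranged from 0.25 to 0.35 and lost its call in 8 of 14, so that the count of members called higher was 0 with no series term, with no filter beyond 1 count and in YTa22 alone, and 0 to 1 with 1 sample left out; the count called lower was then 1 to 2. The cause was not tested. With 1 sample left out, the signs of 3 uncalled members turned. Klf11 ranged from −0.18 (without Klf9 +/+ replicate 1) to 0.24, and was −0.01 without Klf9 f/f replicate 1. Klf10 ranged from −0.15 to 0.11 (without Klf9 +/+ replicate 2), and was 0.07 without Klf9 f/f replicate 2. Klf13 ranged from −0.052 (without Klf9 f/f replicate 2) to 0.27. With 1 sample left out, Klf3 ranged from −0.36 to −0.075, Klf7 from −0.47 to −0.063, Klf12 from −0.29 to −0.12 and Klf16 from 0.043 to 0.20. Over both genotypes Klf9 stayed first in level per length with another gene length, another library size and each sample left out; in the Klf9 f/f samples alone, an alternative chosen after seeing the data, 1 member (Klf15) was above it. The likelihood-ratio test of the interaction also gave 0 members. No paired analysis was possible because the labels give no replicate numbers. With 1 sample of each genotype, YTa32 gives values and no test (−0.21 for Klf9).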
